A study of Mus musculus with 20 samples.

Results

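Interferon-stimulated genes and guanylate-binding proteins were followed in thymic precursors of intraepithelial lymphocytes (IELPs). The group is a list of 48 mouse genes, fixed by name, though earlier results of these data were known when it was chosen. It holds 5 regulators of the interferon response (Irf1, Irf7, Irf8, Irf9 and Stat2), 18 antiviral effectors, 7 nucleic acid sensors, the guanylate-binding proteins (Gbp), 5 immunity-related GTPases and 4 immunoproteasome genes. Of the 48 genes, 45 had a row in the tables of 25246 genes, and Gbp6, Gbp8 and Gbp9 had none, which left 6 guanylate-binding proteins. In the kept cells the 45 genes together held 44060 transcripts, 0.487% of all.

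Interferons are secreted proteins that warn cells of infection. Type I interferons act through the receptor chains Ifnar1 and Ifnar2 and the kinases Jak1 and Tyk2, which activate a complex with Stat2 and Irf9 that binds interferon-stimulated response elements (ISRE). Interferon gamma, made mainly by T cells and NK cells, acts through Ifngr1, Ifngr2, Jak1 and Jak2, and its signal is read at gamma-activated sites (GAS). The targets include effectors that act on viral RNA or virus release, GTPases that attack the vacuoles of intracellular pathogens, and the proteasome subunits that shape peptides for MHC class I. In the thymus some of these genes are active without infection.

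The study asked how IELPs mature and where they stop without the transcription factor C-Myc, and it measured single cells with CEL-Seq2, which counts the 3' ends of transcripts with molecular identifiers. TCRαβ+ thymocytes without CD4, CD8 and NK1.1 were sorted by CD122 (the interleukin 2 receptor beta chain, Il2rb) and by T-bet (Tbx21), the latter read from the green reporter of the TBGR strain. All 3 genotypes carry this reporter. TBGR mice, labelled wild type, were 4 weeks old and gave 4 populations: cells with neither marker (CD122-T-bet-, here CD122-), and CD122+ cells sorted as T-bet-, T-bet int or T-bet high; TBGR C-mycfl/fl mice, with floxed but intact C-myc, were 2 weeks old and gave the same populations; TBGR C-mycD/DCd4 mice, in which a Cd4-Cre transgene deletes C-myc from the stage of CD4 expression on, were 2 weeks old and gave the 2 T-bet- populations. Some captions of the study speak of 1 mouse and its text of mice, so the number of mice per genotype is uncertain. Libraries were therefore taken as parts of the same sort, as from 1 mouse per genotype, and no test between populations or genotypes was made.

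Of 1920 sorted wells in 20 libraries, 1413 cells had at least 2000 transcripts and were kept, 112 to 186 per population. Each TBGR and C-mycD/DCd4 population came from 2 libraries and each C-mycfl/fl population from 4, and every C-mycfl/fl library held cells of 2 populations. A library gave between 94268 and 775264 transcripts of a population, with population medians of 4238.5 to 7073.5 per cell. A library has 96 cell barcodes, and 10 libraries use the same set. Tbx21 was counted 0, 2, 62 and 116 times along the TBGR populations, 0, 5, 16 and 42 times along the C-mycfl/fl populations, and 1 and 2 times in C-mycD/DCd4 cells. Il2rb was counted 2 to 8 times in the CD122- populations and 159 to 514 times in the CD122+ populations. Myc in CD122+T-bet- cells was at 73.8, 125, 135 and 10.6 CPM (transcripts per 1000000) in the C-mycfl/fl libraries and at 44.5 and 9.96 CPM in the C-mycD/DCd4 libraries, so the libraries overlapped; a 3' tag can also come from a transcript that lacks a deleted exon. T cell markers (8 of 9 had a row) summed to 4124 to 7487 CPM per population and B cell markers to 2.84 to 124 CPM. Dendritic cell markers summed to 11.9 to 137 CPM and myeloid markers to 40.7 to 600 CPM.

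Promoters of the listed genes were searched for the letters of the ISRE and GAS sites named above, which not every gene has. RefSeq promoters (GRCm38.p6, 250 bases before and 50 after a start) were found for 35 of the 48 genes. The ISRE core, GAAA then any 2 bases then GAAA, on either strand, stood in a promoter of 20 of the 35 genes (57.1%), against 3.99% of all 27025 genes with a promoter. The GAS letters TTCNNNGAA stood in 13 of 35 (37.1%), against 9.55%. By role, the ISRE core was in 4 of 4 sensor, 4 of 4 Gbp, 3 of 4 immunity-related GTPase, 7 of 14 effector, 1 of 5 regulator and 1 of 4 immunoproteasome genes. Such a match describes letters and not binding. The 250 bases before the start are given for the 5 genes that span these arrangements and recur in the comparisons, with both motifs in capitals, from 5' to 3' along the gene.
Ifit3, chr19:34583279-34583528, plus strand: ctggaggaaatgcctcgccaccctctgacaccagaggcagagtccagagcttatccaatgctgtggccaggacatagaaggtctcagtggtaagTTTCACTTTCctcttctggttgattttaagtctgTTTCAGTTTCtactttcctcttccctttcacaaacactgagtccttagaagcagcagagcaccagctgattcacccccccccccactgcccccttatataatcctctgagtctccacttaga
Isg15, chr4:156200819-156201068, minus strand: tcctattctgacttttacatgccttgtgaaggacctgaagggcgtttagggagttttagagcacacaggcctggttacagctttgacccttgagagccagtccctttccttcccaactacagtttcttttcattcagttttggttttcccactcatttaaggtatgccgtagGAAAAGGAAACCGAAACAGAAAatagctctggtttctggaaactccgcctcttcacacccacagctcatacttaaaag
Gbp7, chr3:142530086-142530335, plus strand: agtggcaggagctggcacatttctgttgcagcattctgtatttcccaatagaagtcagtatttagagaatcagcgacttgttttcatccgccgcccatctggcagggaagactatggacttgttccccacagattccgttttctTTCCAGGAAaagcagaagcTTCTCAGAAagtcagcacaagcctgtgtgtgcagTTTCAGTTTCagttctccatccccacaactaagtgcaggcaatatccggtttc
Irf1, chr11:53769764-53770013, plus strand: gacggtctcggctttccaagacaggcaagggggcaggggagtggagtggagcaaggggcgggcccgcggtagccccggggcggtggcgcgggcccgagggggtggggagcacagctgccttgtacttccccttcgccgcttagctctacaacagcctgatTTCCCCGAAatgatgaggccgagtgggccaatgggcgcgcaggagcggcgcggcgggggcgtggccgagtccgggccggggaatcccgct
Irgm1, chr11:48871421-48871670, minus strand: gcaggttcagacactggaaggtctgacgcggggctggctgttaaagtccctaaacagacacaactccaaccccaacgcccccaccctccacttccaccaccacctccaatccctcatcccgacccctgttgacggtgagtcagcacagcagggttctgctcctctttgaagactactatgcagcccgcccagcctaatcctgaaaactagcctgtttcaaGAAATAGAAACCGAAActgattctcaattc
Ifit3 has 2 separate ISRE cores, which begin 156 and 122 bases before the start. In Isg15 3 cores overlap in 1 run, from 78 bases before the start, and in Irgm1 2 cores overlap from 30 bases before it. Gbp7 has 1 ISRE core at 53 bases and 2 GAS matches at 106 and 87 bases before the start. Irf1 has 1 GAS match and no ISRE core, and its second RefSeq promoter has neither.

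The list was carried by a few abundant genes. Ly6e, a surface protein that limits coronavirus entry, and Shisa5, an endoplasmic reticulum protein induced by interferon and p53, gave 37.6% of the members' transcripts. The 24 best-counted genes gave 92%. Over all kept cells 9 genes reached 1000 transcripts, 28 reached 300 and 8 stayed under 100. The following comparisons therefore rest on single genes as much as on the sum. Since CEL-Seq2 reads only 3' ends, levels are set side by side between cells and not between genes.

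In TBGR cells the summed level was 5257 and 3939 CPM in the CD122- libraries, 5341 and 4717 in CD122+T-bet-, 6062 and 6326 in T-bet int and 10671 and 8563 in T-bet high. The T-bet int libraries lay above both CD122+T-bet- libraries, the T-bet high libraries lay above all others, and the CD122- and CD122+T-bet- libraries overlapped. In C-mycfl/fl cells the sums were 2046, 2791, 2709 and 1890.4 CPM in CD122-, 3287, 3348, 3036 and 1517 in CD122+T-bet-, 4289, 4309, 3944 and 3563 in T-bet int and 5638, 4611, 4386 and 4756 in T-bet high. Within each of the 4 libraries that held both, T-bet high exceeded T-bet int. C-mycD/DCd4 libraries stood at 3496 and 2977 CPM in CD122- and 4802 and 5125 in CD122+T-bet-.

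**Figure D1:**
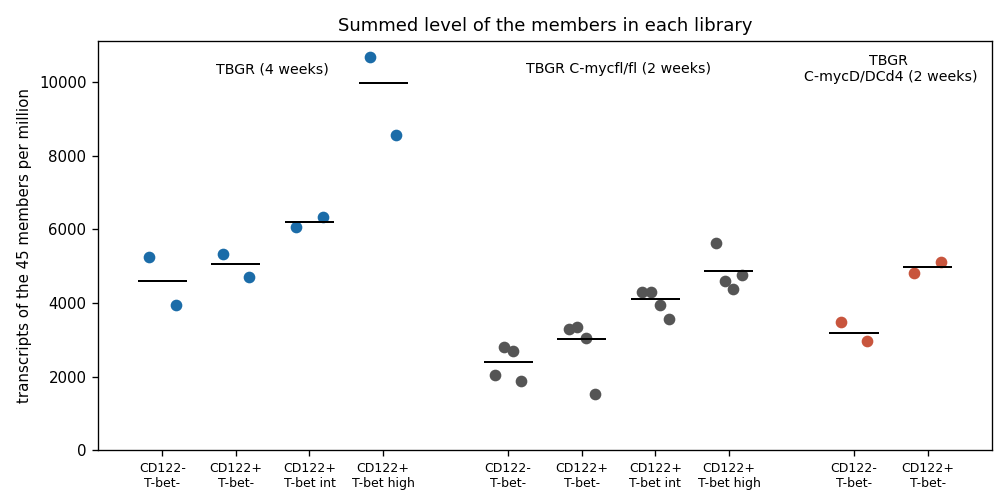
Summed level of the 45 genes in CPM (vertical axis, from 0) in each library (points) by sorted population and genotype, with the population value as a black line. The 2 TBGR T-bet high libraries, at 10671 and 8563 CPM, stand above every other library.

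For single genes, transcripts were summed over the cells of a population, and a gene was measured in a comparison when both populations together held at least 50 of its transcripts. The relative log2 ratio is the log2 ratio of CPM less its median over all genes measured. A gene was called higher or lower when this ratio passed 2-fold and the libraries of the populations did not overlap, or, where the same libraries held both populations, when the ratio went the same way in each. Intervals are exact 95% intervals and cover counting error only, not differences between mice. Of the 45 genes 10 were too sparse for any comparison. Consecutive steps share a population, as do the comparisons of genotypes, so their values are set side by side and are not independent.

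From CD122- to CD122+T-bet- cells of TBGR mice, several interferon-stimulated genes fell while the immunoproteasome did not. Of 29 genes measured, 6 were called lower (20.7%), against 5.14% of all 6531 genes, and 0 were called higher, against 7.09%. The median relative log2 ratio of the 29 was -0.38 (all genes 0), and on the CPM scale it was -0.11 beside 0.26 over all genes. The ubiquitin-like protein Isg15 went from 57.9 and 50.3 CPM to 25.8 and 2.88, a relative log2 ratio of -2.10 (95% interval -2.90 to -1.37). Zbp1, a sensor of Z-form nucleic acids that can start necroptosis, went from 109.6 and 84.6 to 52.9 and 27.4 CPM (-1.51). Rtp4, an inhibitor of viral replication, went from 82.7 and 74.5 to 45.1 and 21.6 CPM (-1.47, -2.01 to -0.94). In each of these genes both CD122+T-bet- libraries lay below both CD122- libraries. Samhd1, which depletes nucleotides, was also called lower (-1.06; 482 and 244 to 184 and 235 CPM), as were the GTPase Igtp (-1.06) and Stat2 (-1.02; 53.7 and 36.2 to 19.3 and 34.6 CPM). The call of Igtp was lost without the cell with the most transcripts (-0.98), and those of Rtp4 and Zbp1 were kept under every alternative tried for single genes. For single genes these alternatives changed the cell filter, the weights or the cells and libraries used, not the gene filter, fold or scaling. Psmb8, the immunoproteasome's catalytic subunit beta 5i, was at 409 and 302 CPM before and 555 and 538 after the step, a relative log2 ratio of 0.36. The 8 markers of double positive thymocytes summed to 656 to 779 CPM in the CD122- and 99.5 to 126 CPM in the CD122+T-bet- libraries (Rag1 and Rag2 at 0 in the latter), and their part was not tested.

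At the next step, from CD122+T-bet- to T-bet int cells, 5 of 34 genes measured were called higher (14.7%), against 2.52% of all 7063 genes, and 0 lower, against 4.29%. The median of the 34 was 0.37 and 25 lay above the median of all genes. Isg15 went from 25.8 and 2.88 to 47 and 72.7 CPM (1.96, 1.28 to 2.73) and Rtp4 from 45.1 and 21.6 to 69.7 and 98 CPM (1.28, 0.79 to 1.80). Both genes had been called lower at the first step, which shares these CD122+T-bet- libraries. Irgm1, a GTPase that regulates autophagy and the other immunity-related GTPases, went from 27.1 and 7.21 to 50 and 42.7 CPM (1.36). The RNA-binding proteins Ifit3 and Ifit1 were the remaining calls. Ifit3 went from 2.58 and 2.88 to 66.7 and 15.8 CPM (3.77), but 19 of its 54 transcripts in T-bet int cells lay in 1 cell. Without the richest cell of each population the ratio was 3.52, but the 38 transcripts left were too few for a call. Ifit1 went from 49 and 10.1 to 54.5 and 108 CPM (1.37). Only Isg15 was called under every alternative tried for single genes, none of which changed the gene filter. The regulators did not share this direction: Irf7 was at 77.4 and 57.7 CPM in CD122+T-bet- and 47 and 37.9 in T-bet int libraries (-0.68, not called), and Irf1 at 115 and 85.1 and 78.8 and 72.7 CPM (-0.42, not called).

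The step from T-bet int to T-bet high cells gave the most calls in TBGR mice, across regulators, effectors and GTPases. Of 34 genes measured, 11 were called higher (32.4%), against 7.95% of all 5833 genes, and 0 lower, against 8.31%. Both T-bet high libraries exceeded both T-bet int libraries, at any fold, in 22 of the 34 genes, against 20.2% of all genes, and lay below them in 2 (Samhd1 and Psme1), against 35.6%. The median of the 34 was 0.70, and the sum was higher by 0.69 on the log2 CPM scale (95% interval 0.64 to 0.73), beside a median over all genes of -0.11.

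Among the regulators, Irf7, which amplifies type I interferon responses, rose from 47 and 37.9 to 110.3 and 98.5 CPM (1.42, 0.91 to 1.96). Irf1, an early target of interferon gamma, rose from 78.8 and 72.7 to 157 and 124 CPM (1.05, 0.64 to 1.47). Irf9, the DNA-binding part of the type I complex, was at 54.5 and 58.5 and 110.3 and 94.2 CPM and just missed the 2-fold limit. Irf8 was at 15.2 and 31.6 and 44.6 and 8.57 CPM with overlapping libraries.

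Of 14 effectors measured 7 were called higher. Ifit3 rose from 66.7 and 15.8 to 219 and 149.9 CPM (2.33, 1.87 to 2.82), the largest ratio in the list, and the exonuclease Isg20 from 39.4 and 26.9 to 153 and 116 CPM (2.17, 1.65 to 2.74). Ly6e rose from 1099 and 1322 to 2964 and 2257 CPM (1.28, 1.18 to 1.38) and Shisa5 from 808 and 952 to 1945 and 1384 CPM (1.11). Ly6e and Shisa5 alone made up a large part of the summed difference: without them the libraries stood at 4156 and 4052 CPM in T-bet int and 5762 and 4922 in T-bet high, still apart. Parp14, an ADP-ribosyltransferase, rose from 43.9 and 39.5 to 102 and 124 CPM (1.49). Bst2 (tetherin), which holds budding virus at the cell surface, rose from 33.3 and 50.6 to 91.2 and 94.2 CPM (1.25), and Trim30a from 115 and 85.4 to 206 and 158 CPM (1.02). Isg15 did not continue its earlier rise and stood at 47 and 72.7 and 59.4 and 42.8 CPM (-0.03). Samhd1 stood at 291 and 349 CPM in T-bet int and 195 and 193 in T-bet high (-0.61, not called).

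Gbp7 and Irgm1 were the GTPases called at this step. Gbp7 rose from 194 and 204 to 458 and 329.8 CPM (1.17, 0.92 to 1.42), and Irgm1 from 50 and 42.7 to 99.7 and 72.8 CPM (1.07). Gbp4, Gbp10, Ifi47 and Igtp were all higher in both libraries but under 2-fold, with relative log2 ratios of 0.92, 0.71, 0.87 and 0.91. Ifi47, the best-counted GTPase, stood at 259 and 256 and then 473 and 368 CPM. Some Gbp genes are close paralogs, whose reads may have been divided among them or lost. The immunoproteasome did not take part: Psmb8 stood at 556 and 471 CPM in T-bet int and 462 and 493 in T-bet high (-0.02, -0.21 to 0.17), and 0 of its 3 measured genes were called. Of the 5 sensors measured 0 were called, and the best-counted, Mndal, stood at 461 and 421 and 516 and 509.7 CPM (0.33). Reads of Mndal, Ifi203 and Ifi204, which are close paralogs, may not be separable. All 11 calls were kept without the cell with the most transcripts, and Gbp7, Ifit3, Irf7, Isg20, Ly6e and Parp14 were called under every alternative tried for single genes. The NKT cell markers summed to 285 CPM in T-bet int and 640 CPM in T-bet high cells, and their part in these values was not tested.

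**Figure D2:**
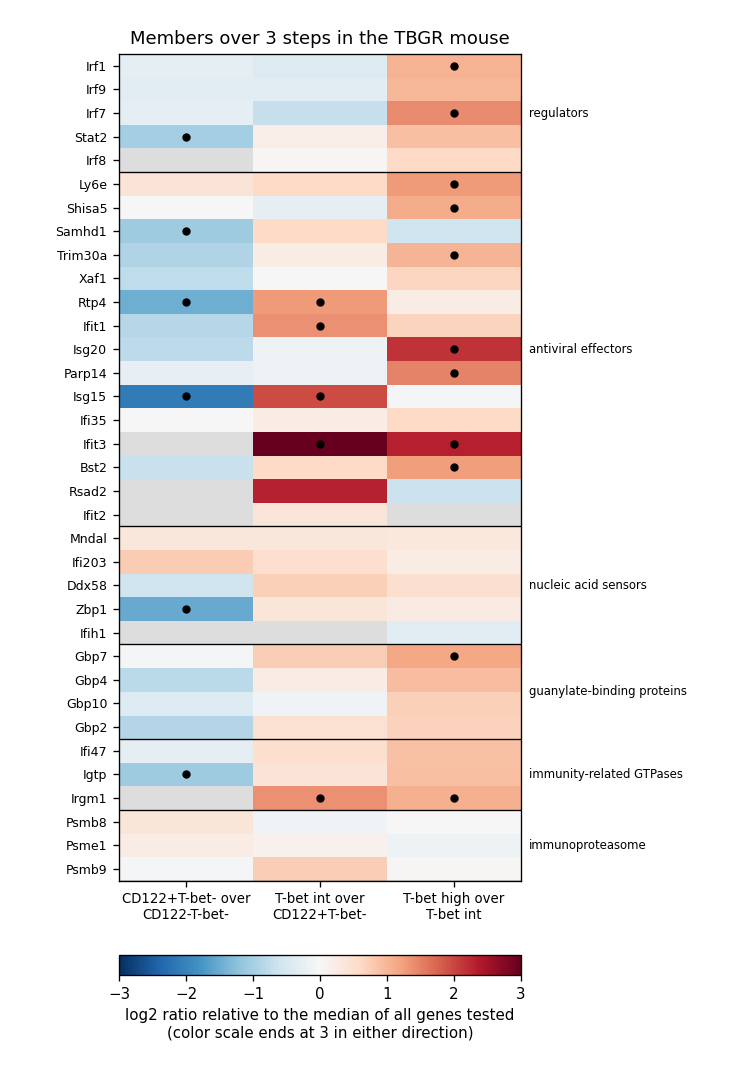
Relative log2 ratio of each gene (rows, by role) at the 3 steps between the TBGR populations (columns), as colour on a scale that ends at 3; a dot marks a called gene and grey a gene under 50 transcripts. Calls are lower at the first step (6) and higher at the second (5) and the last (11), and the immunoproteasome rows hold no dot.

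The receptors and the ligand around the list shifted along the same cells. Of a fixed list of 68 interferon pathway genes, 60 had a row. At the last TBGR step 9 of 37 measured pathway genes outside the members were called higher and 1 lower, against 7.95% and 8.31% of all genes. Ifng, the gene of interferon gamma itself, was listed at 0 and 0 CPM in CD122-, 1.29 and 0 in CD122+T-bet-, 12.1 and 11.1 in T-bet int and 117 and 111 in T-bet high libraries (3.37 at the last step). Ifngr1, the ligand-binding receptor chain, stood at 35.1 and 30.2, 55.5 and 77.8, 108 and 139 and 229 and 283 CPM in the same order and was called higher at the last step (1.11). Ifngr2, the signalling chain, ran the other way, at 103 and 78.5, 59.3 and 57.7, 4.55 and 19 and 0 and 4.28 CPM, and was called lower from CD122+T-bet- to T-bet int (-2.31, -3.25 to -1.55). The population with the most Ifng and Ifngr1 transcript thus held the least of Ifngr2. The Ifng call was lost without T-bet high library 1, while its ratio stayed between 3.26 and 3.52 with 1 library left out. The Ifngr1 call was lost without T-bet high library 2, without T-bet int library 1 and with equal cell weights. Its ratio ranged from 0.93 to 1.49 with 1 library left out.

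Socs1, an inhibitor of Janus kinases, rose at the last step from 25.8 and 44.3 to 176 and 55.7 CPM (2.07). Without T-bet high library 1 its ratio was 0.997 and the call was lost. The type I receptor chains showed no such call: Ifnar2 stood at 93.9 and 61.7 CPM in T-bet int and 76.4 and 72.8 in T-bet high (0.06), and Ifnar1 was under 50 transcripts at that step. Jak1 stood at 732 and 655 and 766 and 591 CPM (0.13), Jak2 at 84.9 and 80.6 and 78.5 and 94.2 (0.13), and Tyk2 at 43.9 and 25.3 and 78.5 and 38.6 with overlapping libraries. B2m, the light chain of MHC class I, stood at 1170.0 and 946, 1998 and 1859.6, 3086 and 2659 and 4071 and 4279 CPM along the populations, higher in both libraries at each step but under 2-fold. The peptide transporter Tap1 stood at 90.9 and 96.4 and 140.0 and 141 CPM (0.69). The kinase Eif2ak2, which stops translation on viral RNA, stood at 72.7 and 71.2 and 95.5 and 129 CPM (0.67), and Mx1, a GTPase against influenza virus, at 12.1 and 9.49 and 36.1 and 0 CPM, too few to measure. Genes called higher at this step also included Herc6, Il10rb, Nlrc5, Oas3 and Slfn1, and the gene called lower was Cmpk2; these are named after their values were seen.

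**Figure D3:**
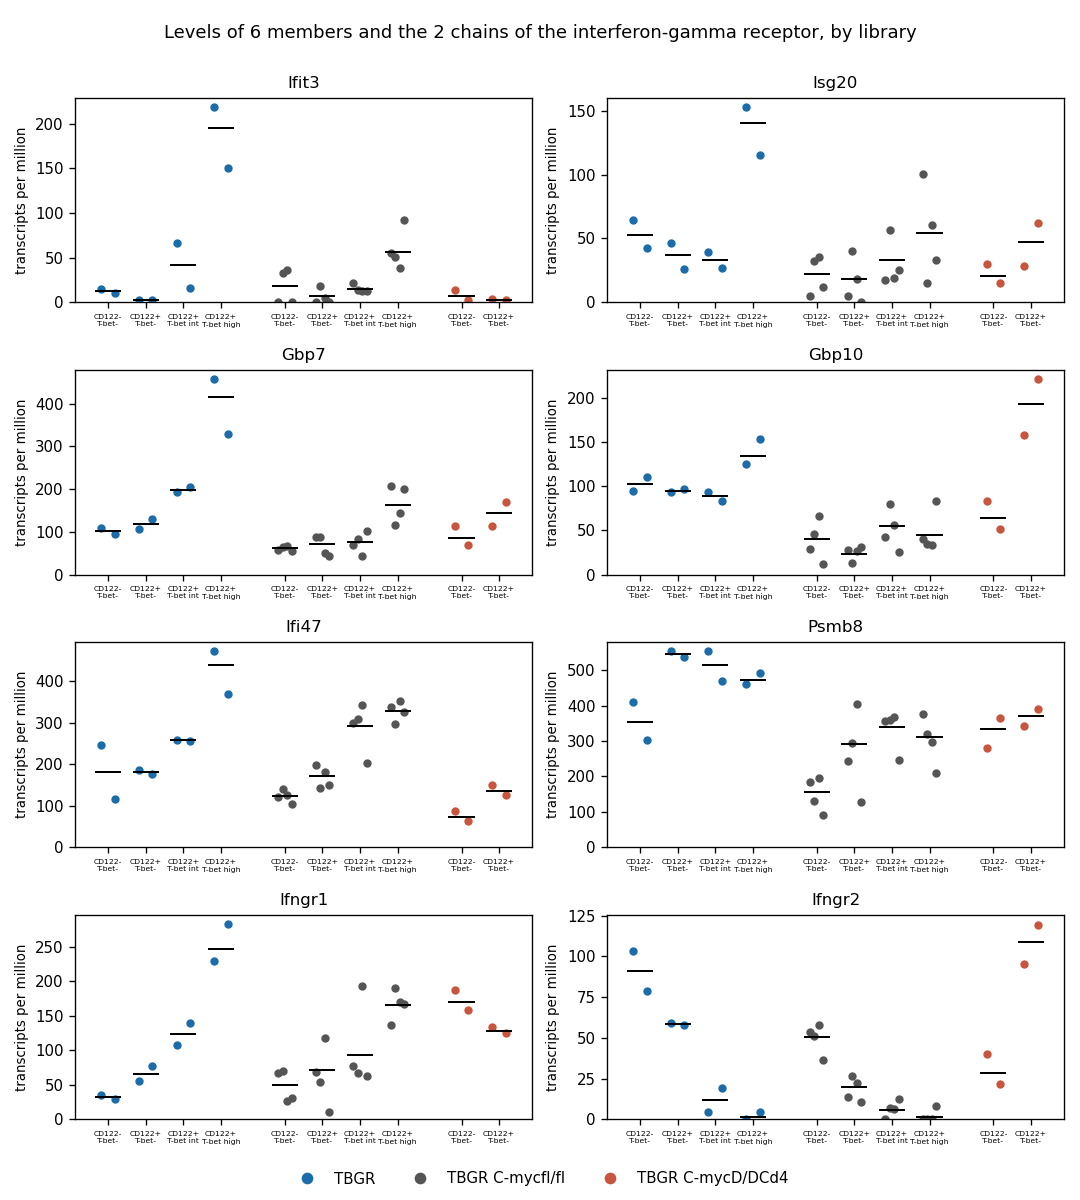
CPM of Ifit3, Isg20, Gbp7, Gbp10, Ifi47, Psmb8, Ifngr1 and Ifngr2 (1 panel each, vertical axes from 0) in each library (points) by population and genotype, with black lines for population values. Ifit3, Isg20 and Gbp7 peak in TBGR T-bet high cells, Gbp10 in C-mycD/DCd4 CD122+T-bet- cells, and Ifngr2 is near 0 in T-bet high cells.

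In C-mycfl/fl mice the same populations gave fewer calls, but by the rule for shared libraries and from fewer measured genes. The numbers of calls are therefore not comparable with those of TBGR mice. From CD122- to CD122+T-bet- cells, 0 of 16 measured genes were called by this rule, against 3.33% higher and 5.3% lower of 3662 genes; CPM ratios without the median gave 2 calls. The median of the 16 was -0.18, and the relative log2 ratio of the sum, each library less its own median, lay between -0.70 and 0.52. Library 4 of the CD122+T-bet- cells stood apart, with a summed level of 1517 CPM against 3036 to 3348 in the others. Without it 1 gene, Psmb9, was called, and without library 1, 3 genes were (Trim30a, Ly6e and Igtp). From T-bet int to T-bet high, 2 of 25 were called higher (8%), against 2.96% of 3987 genes, and 0 lower, against 1.73%. Gbp7 went from 68.6, 83.7, 43.5 and 101 to 207, 115, 143 and 200.3 CPM (1.29, within libraries 0.70 to 1.82) and Ifit3 from 21.4, 13.4, 12.4 and 12.7 to 55.4, 50.1, 38.5 and 91.8 CPM (2.01, within libraries 1.46 to 2.71). Both genes were higher in each of the 4 libraries, and both had been called at the same step in TBGR cells. Without the richest cells the Ifit3 ratio was 2.27, with 42 transcripts left, too few for a call, and the libraries no longer went 1 way. Ly6e, from 935, 924, 902 and 848 to 1562, 1148, 1084 and 1193 CPM, was higher in every library at 0.64, under 2-fold. Psmb8 stood at 356, 358, 367 and 247 and 378, 321, 297 and 209 CPM (0.06). Of 25 genes 21 lay above the median of all genes.

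The interferon gamma genes moved here as well. Ifng stood at 17.2, 6.7, 6.22 and 0 CPM in T-bet int and 45.3, 125, 60.5 and 50.1 in T-bet high libraries (3.24), a call that was lost without the richest cells (3.67, 45 transcripts left) and without library 1, 2 or 3, while the ratio stayed between 2.55 and 4.08. Ifngr2 fell from 53.3, 51.2, 57.8 and 36.6 CPM in CD122- to 13.8, 26.7, 22.6 and 10.6 in CD122+T-bet- cells (-1.84, within libraries -1.96 to -1.63) and stood at 0, 6.7, 6.22 and 12.7 and 0, 0, 0 and 8.34 CPM in the T-bet int and T-bet high libraries. The Ifngr2 call was lost when any 1 library was left out, while the ratio stayed between -1.89 and -1.82. Of the 32 pathway genes measured outside the members at the last step, 4 were called higher, against 2.96% of all genes (Ifng and, named after their values were seen, Ifi27l2a, Ifitm1 and Slfn1).

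In C-mycD/DCd4 mice CD122+T-bet- cells held more of the list than CD122- cells. Of 24 genes measured 10 were called higher (41.7%), against 10.5% of 4211 genes, and 0 lower, against 8.12%. The median of the 24 was 0.87, with 22 above the median of all genes. Shisa5 rose from 324 and 268 to 981 and 1249.6 CPM (1.87, 1.65 to 2.09). Gbp10 rose from 83.6 and 51.4 to 159 and 222 CPM (1.49, 1.02 to 2.00). Of the 4 sensors measured 3 were called, 2 of them close paralogs, and Zbp1 was at 0.35, not called. Mndal rose from 177 and 154 to 372 and 403 CPM (1.16), its paralog Ifi203 from 110.4 and 90 to 267 and 251 (1.30), and Ddx58, the RIG-I sensor of viral RNA, from 43.5 and 21.4 to 69.9 and 69.7 (1.10). Parp14 (1.73), Irf9 (1.25), Samhd1 (1.09) and Trim30a (1.08) were also called. With 1 library left out, the ratio ranged from 0.33 to 2.15 for Irf9 and from 0.43 to 1.60 for Trim30a. It ranged from 1.22 to 1.99 for Parp14 and from 1.05 to 1.16 for Samhd1. Irf8, a factor of myeloid and lymphoid development, rose from 10 and 10.7 to 111 and 32.4 CPM (2.51), but 17 of its 48 transcripts lay in 2 cells of library 1, and without the richest cells its ratio was 2.39, with 46 transcripts left, too few for a call. Parp14 likewise had a ratio of 1.84 with 47 left. Those 2 cells held 3 and 7 Cd3e transcripts and 0 of the B and dendritic cell markers. The double positive thymocyte markers summed to 699 to 846 CPM in CD122- and 127 to 130.2 in CD122+T-bet- libraries, and their part was not tested. Ly6e and Ifit1 were the 2 genes below the median of all genes. Ly6e was at 803 and 995 CPM in CD122- and 492 and 505 in CD122+T-bet- libraries (-0.97, not called). Shisa5 was the 1 call kept under every alternative tried for single genes. When CD122- library 2 was left out 6 genes were called, and when every cell was weighted equally 3 were.

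C-mycD/DCd4 and C-mycfl/fl cells also came from different mice and library layouts, which cannot be told apart from genotype in either population. Between genotypes, CD122- cells showed little beyond the shift of all genes. Of 19 genes measured in C-mycD/DCd4 over C-mycfl/fl cells, 0 were called higher, against 3.32% of 3677 genes, and 1 lower (5.26%), against 1.2%. The median of the 19 was 0.04. The called gene, Ifi47, was at 121, 139.5, 125 and 104 CPM in C-mycfl/fl and 87 and 62.2 in C-mycD/DCd4 libraries (-1.23, -1.74 to -0.75), and without the richest cells the ratio was -1.41 but the libraries overlapped. Psmb8 was at 184, 130.2, 196 and 91.5 CPM in C-mycfl/fl and 281 and 367 in C-mycD/DCd4 libraries (0.65, not called).

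In CD122+T-bet- cells the genotypes gave more calls. Of 23 genes measured 8 were called higher than in C-mycfl/fl cells (34.8%), against 10.4% of 4201 genes, and 0 lower, against 7.88%; the median of the 23 was 0.80. Gbp10 was at 27.7, 13.4, 27.1 and 31.8 CPM in the C-mycfl/fl libraries and at 159 and 222 in the C-mycD/DCd4 libraries, a relative log2 ratio of 2.87 (95% interval 2.20 to 3.71). Trim30a was at 46.1, 75.7, 54.1 and 21.2 CPM against 209.6 and 217 (1.85, 1.35 to 2.39), and Mndal at 69.1, 160.3, 139.8 and 10.6 against 372 and 403 (1.70, 1.35 to 2.08). In these 3 genes, which were called under every alternative tried for single genes, the lowest C-mycD/DCd4 library lay above the highest C-mycfl/fl library. Ddx58 (1.49), Irf8 (1.61), Parp14 (1.48), Irf9 (1.07) and Rtp4 (1.01) were also called. Of these, 2 calls were lost without the richest cells: Parp14 (1.55) with 49 transcripts left, and Rtp4 (1.10) because its libraries then overlapped. Each of these calls was also lost in at least 1 case with 1 library left out. The ratio then ranged from 0.58 to 2.55 for Irf8, from 0.68 to 1.84 for Irf9 and from 0.77 to 1.49 for Rtp4. It ranged from 1.21 to 1.96 for Ddx58 and from 1.28 to 1.78 for Parp14. Shisa5 stood at 765, 579, 717 and 276 CPM in C-mycfl/fl and 981 and 1249.6 in C-mycD/DCd4 libraries (0.71). Without the C-mycfl/fl library 4 that stood apart, 7 genes were called. Markers of other T cell stages and lineages also differed here, and their part was not tested: the gamma delta markers summed to 189 to 696 CPM in C-mycfl/fl and 1036 to 1093 in C-mycD/DCd4 libraries, the double positive thymocyte markers to 10.6 to 53.4 and 127 to 130.2, and the NKT markers to 108 to 143 and 219 to 279. Other Gbp genes were under 2-fold, Gbp7 at 0.90 and Gbp4 at 0.91.

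Not every role differed in this way. The immunity-related GTPases stood at 267, 245, 235 and 180.3 CPM in C-mycfl/fl and 238 and 202 in C-mycD/DCd4 CD122+T-bet- libraries, a relative log2 ratio of -0.26 with overlapping libraries, whereas the guanylate-binding proteins stood at 184, 214, 180.4 and 117 and 391 and 585 CPM (1.33). The 3 immunoproteasome genes measured lay between -0.04 (Psmb9) and 0.22 (Psmb8). Relative log2 ratios were 1.16 for the regulators, 0.52 for the effectors and 1.23 for the sensors. One C-mycD/DCd4 CD122+T-bet- cell held 151 of the 187 B and dendritic cell marker transcripts of its population; without the cells with 5 or more such transcripts this comparison kept its number of calls.

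**Figure D4:**
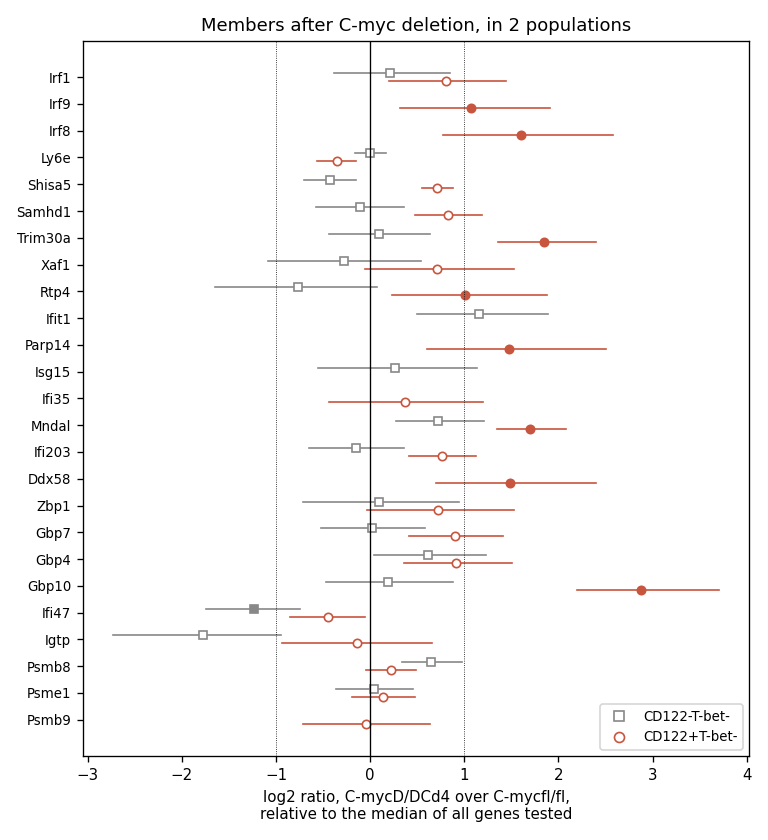
Relative log2 ratio of C-mycD/DCd4 over C-mycfl/fl cells (horizontal axis, dotted lines at the 2-fold limits) with 95% counting intervals, for each gene (rows) in CD122- (squares) and CD122+T-bet- cells (circles); filled symbols are called. Filled circles lie to the right (8 genes, Gbp10 farthest) and the 1 filled square, Ifi47, to the left.

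Among the pathway genes, receptor chains and Jak2 gave calls in the same populations, while the ligand Ifng was hardly counted. Ifngr2 was at 40.1 and 21.4 CPM in CD122- and 95.3 and 119 in CD122+T-bet- C-mycD/DCd4 libraries (1.80), and against the C-mycfl/fl CD122+T-bet- libraries it was called higher (2.30, 1.53 to 3.24). This step ran upward where it was called lower in C-mycfl/fl cells, a call that was lost when any 1 library was left out. Ifngr1 was higher in CD122- C-mycD/DCd4 cells, at 187 and 159 CPM against 67.9, 69.8, 26.7 and 30.5 (1.31). Ifng was listed at 0 and 0 and 0 and 2.49 CPM. Jak2 was called higher in CD122+T-bet- cells against both references (1.31 over CD122- cells and 1.27 over C-mycfl/fl cells), which share the same C-mycD/DCd4 CD122+T-bet- libraries. Both Jak2 calls were lost without library 2 of that population. With 1 library left out these ratios ranged from 0.80 to 1.65 and from 0.81 to 1.63. B2m went from 575 and 656 to 2287 and 2233 CPM (1.76) and Socs1 from 40.1 and 49.3 to 98.5 and 152 (1.38). In all, 11 of 27 pathway genes outside the list were called higher within C-mycD/DCd4 mice and 7 of 29 between genotypes in CD122+T-bet- cells, with 0 lower in both. All genes gave 10.5% and 10.4% higher, and 8.12% and 7.88% lower.

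Single cells showed whether these levels were broad or carried by few cells. Each cell was thinned to 2000 transcripts by its exact expectation so that depth did not set the shares. No sorted population should lack these genes, so no background share can be given; barcodes without a cell held 26.6 transcripts each on average. Ly6e was seen in 51.8% (44 to 59.4%) of CD122-, 64.5% (57.2 to 71.4%) of CD122+T-bet-, 76.1% (68.9 to 82.2%) of T-bet int and 98% (94.2 to 99.6%) of T-bet high TBGR cells. Unthinned, the last share was 99.3%. Gbp7 was seen in 26.5% (19.9 to 33.6%) of T-bet int and 50.4% (42 to 58.7%) of T-bet high cells (unthinned 50.3% and 72.8%). Ifit3 was seen in 4.9% (2.04 to 9.01%) of T-bet int and 22.2% (16 to 30.1%) of T-bet high cells (unthinned 12.3% and 39.5%), so its rise involved more cells and still left most without a transcript at this depth. Among C-mycfl/fl cells the Ifit3 shares were 2.35% (0.537 to 7.37%) in T-bet int and 8.11% (3.74 to 14.7%) in T-bet high, and their intervals overlapped. Gbp10 was seen in 5.99% (2.34 to 11.5%) of C-mycfl/fl and 28.9% (21.7 to 37.6%) of C-mycD/DCd4 CD122+T-bet- cells (unthinned 13.9% and 52.6%). Mndal was seen in 19.4% (13 to 27.8%) and 48.2% (39.6 to 56.9%) of the same cells.

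The number of the 18 effectors seen per cell, after 1 random draw of 2000 transcripts, had medians of 2, 2, 3 and 4 along the TBGR populations, 1, 1, 2 and 2 along the C-mycfl/fl populations, and 1 and 2 in C-mycD/DCd4 cells. Cells with none made up 7.47% of TBGR CD122- cells, 3.76% of CD122+T-bet-, 0.585% of T-bet int and 0 of 147 T-bet high cells, which allows up to 2.04%. In C-mycfl/fl cells they made up 28.3% of CD122- and 3.57% of T-bet high cells, and in C-mycD/DCd4 cells 21.1% of CD122- and 4.38% of CD122+T-bet- cells. At the upper end, 6 or more effectors were seen in 10.9% of TBGR CD122- cells, 3.76% of CD122+T-bet-, 8.19% of T-bet int and 15.6% of T-bet high cells.

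**Figure D5:**
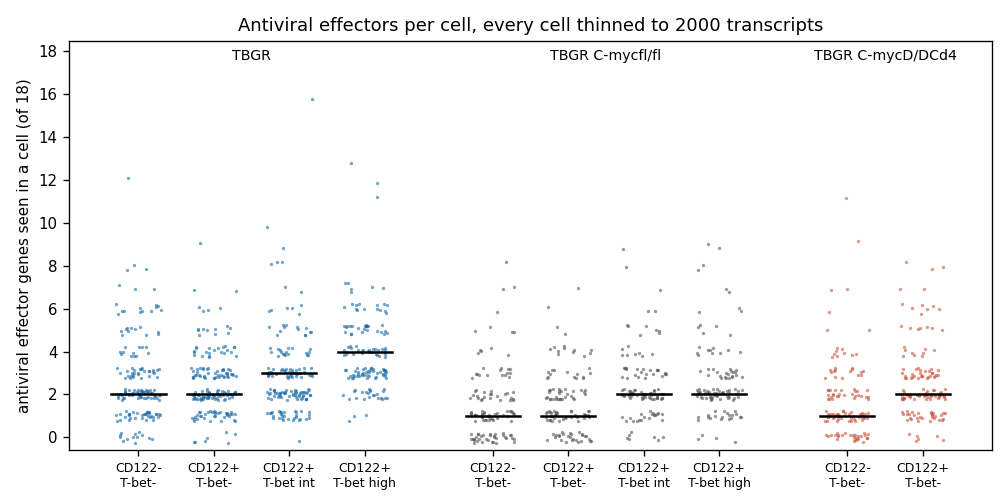
Number of the 18 antiviral effectors seen per cell after thinning to 2000 transcripts (vertical axis; points are cells, moved slightly to show overlaps) by population and genotype, with the median as a black line. The median is highest, at 4, in TBGR T-bet high cells, and the single highest cell, with 16, is a TBGR T-bet int cell.

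A few cells held very large amounts of single effectors. One TBGR T-bet int cell of 7386 transcripts held 71 of the 94 transcripts (75.5%) of Rsad2 (viperin, a radical SAM enzyme that blocks viral replication) in its population, together with 19 Ifit3 transcripts and 17 of the 18 effectors. It also held 3 Cd3e transcripts and none of Cd79a, Cd74 or Siglech. Rsad2 stood at 24.5 and 2.88 CPM in CD122+T-bet- and 119.7 and 23.7 in T-bet int libraries, which overlapped, and it was not called. Another cell, of C-mycD/DCd4 CD122-, held 62 of 73 Ifit1 transcripts (84.9%) and 13 effectors, which set the Ifit1 level of library 1 of that population at 227 CPM against 10.7 in library 2. In TBGR T-bet high cells, the cell with the most Ifit3 held 20 of 138 transcripts (14.5%), so no single cell carried the call there.

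The TBGR and C-mycfl/fl mice can be set side by side for each population, but they differ in age, genotype label and library layout, which cannot be told apart. In CD122- cells 5 of 28 genes were called higher in TBGR, against 11.8% of all genes measured, and 0 lower, against 3.16%. In CD122+T-bet- cells the calls were 3 of 26 higher, against 10.4%, which is close to the share of all genes, and 0 lower, against 2.95%. T-bet int cells gave 4 of 33 higher, against 7.23%, and 0 lower, against 3.47%. T-bet high cells gave 9 of 32 higher, against 11.6%, and 0 lower, against 6.54%. Irf7 had the largest ratio among the CD122+T-bet- calls, at 77.4 and 57.7 CPM in TBGR and 13.8, 17.8, 13.5 and 0 in C-mycfl/fl libraries (1.90). In T-bet high cells Parp14 stood at 102 and 124 CPM in TBGR and 20.2, 30.1, 5.5 and 16.7 in C-mycfl/fl libraries (2.05), Irf9 at 110.3 and 94.2 and 15.1, 20, 38.5 and 16.7 (1.70), and Ifit3 at 219 and 149.9 and 55.4, 50.1, 38.5 and 91.8 (1.34). Mndal was called in all 3 CD122+ populations, with relative log2 ratios of 1.25 in T-bet- and 1.30 in T-bet int cells and just over the limit in T-bet high cells. Ifi47 overlapped between the mice in the CD122-, CD122+T-bet- and T-bet int populations and stood at 473 and 368 CPM against 338, 296, 352 and 325 in T-bet high libraries (-0.04).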

How the data were processed

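CEL-Seq2 profiles came from 20 libraries of 96 wells. Per the study's methods, reads were demultiplexed and aligned to GENCODE transcripts (submitters' notes: bcl2fastq 2.17.1.14, BWA 0.6.2-r126), reads on several loci were dropped, and molecular identifiers of 6 bases were counted per gene and cell. The deposited values are expected counts: the authors corrected each count for identifiers drawn more than once, so values need not be whole. Here they were rounded to whole transcripts per gene and cell. Sorted populations come from the deposited labels of wells. Cells with at least 2000 transcripts, without mitochondrial and spike-in rows, were kept. No doublet caller was run.

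Transcripts were summed per library and population. Genes with at least 50 transcripts over both populations were compared, with 0.5 added to each sum. Intervals of ratios are exact binomial intervals of the sums as counted. Libraries were not taken as replicates of a condition, since the number of mice per genotype is uncertain, so no test was run. Alternatives changed the cell and gene filters, the fold, the scaling and the cells or libraries used. The design text calls the cells NK1.1+ and the study's methods NK1.1-, and the latter was followed. The genes, roles and pathway lists were chosen with earlier results of these data known. Named were the 24 best-counted members, every called member, and Ifnar1, Ifnar2, Ifngr1, Ifngr2, Jak1, Jak2, Tyk2, Socs1, Ifng, Tap1, B2m, Mx1, Eif2ak2, Tbx21, Il2rb and Myc. A further gene of this rule is not reported here. Other pathway genes were named after their values were seen. The comparison of TBGR with C-mycfl/fl mice was added after the data were seen. Calls were tested on simulated data: in 5841 genes simulated for T-bet high over T-bet int of TBGR, 92 of 100 genes changed 4-fold and 85 of 100 changed 3-fold were called, and 0.247% of unchanged genes. For T-bet high over T-bet int of C-mycfl/fl, 88 and 82 of 100 were called. In CD122+T-bet- cells, C-mycD/DCd4 over C-mycfl/fl gave 82 and 80 of 100. The simulation held counting error only, without differences between libraries or cells, so 0.247% is not the share of false calls in the data. Python 3.11.15, NumPy 2.4.6, SciPy 1.17.1, pandas 2.3.3 and matplotlib 3.10.9 were used.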

Additional observations from a re-analysis of the deposited data

Results flagged for a closer look

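In C-mycfl/fl mice 4 of 100 groups of 4 libraries had 1 library far from the others, and chance flags about 1 in 20. All 4 flagged libraries carry the number 4, but this number names different libraries. The flag of the summed level comes from another library than the flags of Psmb8, Gbp10 and Ddx58. The summed level of the list in CD122+T-bet- cells was 1517 CPM in library 4 and 3036 to 3348 CPM in the others. Psmb8 in T-bet int cells was at 247 CPM, against 356 to 367 CPM. Gbp10 in T-bet high cells was at 83.4 CPM, against 33 to 40.3 CPM, and Ddx58 in the same cells at 16.7 CPM, against 35.1 to 38.5 CPM.

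From CD122- to CD122+T-bet- cells, the relative log2 ratios of some genes had opposite signs in different genotypes. In TBGR and C-mycD/DCd4 cells the libraries of the populations also did not overlap in CPM, in the same direction. In C-mycfl/fl cells the ratio less each library's own median went the same way in every library. Ly6e had a relative log2 ratio of 0.39 in TBGR, -0.71 in C-mycfl/fl and -0.97 in C-mycD/DCd4 cells. Its CPM in C-mycfl/fl cells rose in some libraries and fell in others. Between TBGR and C-mycD/DCd4 cells the ratios were -0.60 and 1.10 for Ddx58, -1.47 and 0.92 for Rtp4, -0.90 and 1.08 for Trim30a, -1.51 and 0.35 for Zbp1, and -1.06 and 1.09 for Samhd1. These differences were not tested, and the mice also differ in age.

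Barcodes that held no cell, 1920 in all, contained 334 member transcripts of 51097, or 6538 CPM, beside 4870 CPM in the kept cells.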

How the results depend on the processing

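No paired analysis was possible because the results come from no test: each genotype was taken as 1 mouse, and replicate numbers only name libraries. Where C-mycfl/fl libraries held both populations, calls did require the same direction within each library. Of the values for whole comparisons 231 stayed near the reported value, 39 moved and 4 reversed. A count was near within 1.5-fold, and a sum within the spread between libraries. Reversal was labelled only where the libraries lay apart, so a sum of overlapping libraries could change sign and still count as near. An example is TBGR CD122+T-bet- over CD122-, at -0.13 relative to the median and 0.14 by CPM. Single gene calls held in 436 cases and were lost in 110. Values below are numbers of genes called, with the reported number first; the cause was not tested. TBGR CD122+T-bet- over CD122- (6): 3 with every cell weighted equally. T-bet int over CD122+T-bet- (5): 8 at 20 transcripts per gene, 2 at 100, 9 with no gene filter and 11 at 1.5-fold, and 2 to 8 with 1 library left out (2 without CD122+T-bet- library 2, 8 without library 1). T-bet high over T-bet int (11): 17 with no filter and 22 at 1.5-fold. C-mycfl/fl CD122+T-bet- over CD122- (0): 3 with no filter, 1 at 1.5-fold, 2 by CPM ratios and 0 to 3 with 1 library left out. T-bet high over T-bet int in C-mycfl/fl (2): 1 at 3000 transcripts per cell, 1 at 100 per gene, 5 with no filter, 5 at 1.5-fold, 1 without the cell with the most transcripts and 1 to 2 with 1 library left out. CD122+T-bet- over CD122- in C-mycD/DCd4 (10): 6 at 100 per gene, 3 with equal weights and 6 to 12 with 1 library left out (6 without CD122- library 2). C-mycD/DCd4 over C-mycfl/fl in CD122- (1): 4 with no filter, 4 at 1.5-fold, 3 by CPM ratios and 0 without the cell with the most transcripts. The same in CD122+T-bet- (8): 3 at 100 per gene, 14 with no filter, 14 at 1.5-fold and 5 to 7 with 1 library left out (5 without C-mycD/DCd4 library 1). The summed log2 ratio relative to the median was 0.23 with no filter and 0.33 by CPM in the C-mycfl/fl step to CD122+T-bet- (reported -0.19), 0.25 by CPM from T-bet int to T-bet high in C-mycfl/fl (0.43), and 0.89 without Ly6e and 0.31 to 0.68 with 1 library left out in C-mycD/DCd4 (0.55). Between genotypes in CD122- cells it reversed from -0.05 to 0.24 with no filter, 0.41 by CPM, 0.22 without C-mycD/DCd4 library 2 and 0.12 without C-mycfl/fl library 2, in a range of -0.29 to 0.22 with 1 library left out. Leaving out the cell with the most transcripts, or cells with B cell or dendritic cell markers, was chosen after seeing the data.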

Other observations

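In thinned TBGR cells, Ifit3, Rsad2, Isg15, Irf7 and Gbp7 were seen in a larger share of the cells with an Ifit1 transcript than of those without. Cells with an Ifit1 transcript (58) held Ifit3 in 24.1% (13.9 to 37.2%, exact binomial interval), against 5.16% (3.56 to 7.21%) of the 620 cells without one. Rsad2 was seen in 19% (9.87 to 31.4%) and 2.10% (1.12 to 3.56%), Isg15 in 17.2% (8.59 to 29.4%) and 4.52% (3.02 to 6.46%), and Irf7 in 36.2% (24 to 49.9%) and 10% (7.75 to 12.6%). The GTPase Gbp7 was seen in 44.8% (31.7 to 58.5%) and 27.4% (23.9 to 31.1%). Ifi47 was seen in 46.6% (33.3 to 60.1%) and 36% (32.2 to 39.9%), and Psmb8 in 63.8% (50.1 to 76%) and 54.5% (50.5 to 58.5%), with overlapping intervals. Cells of the 4 TBGR populations were pooled, so differences between populations are part of these shares.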
